A study of Mus musculus with 12 samples.

Results

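The 40 genes examined here drive a resting cell back into division: the cyclins and their kinases, the E2F factors and pocket proteins, the replication licensing genes and the genes of mitosis. Their open chromatin was read from 12 ATAC-seq summit lists of hematopoietic stem cells (HSCs). A region counted as theirs when it overlapped the body of a gene or the 10 kb on either side of it, which gave 143 of the 71006 regions of the whole catalogue. Of these, 46 were promoter regions, lying within 1 kb of an annotated start of the gene itself. A further 28 lay within 1 kb of a start of another gene only and are called neighbour promoters, and 69 were distal. The rule used position alone, and every one of the 40 genes had at least 1 promoter region.

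Bone marrow HSCs came from C57BL/6 mice of 2 genotypes, Mlkl-/- and wild type (WT), at 3 months (young) and 18 months (aged), with 3 libraries in each of the 4 groups. MLKL, a pseudokinase, is the executioner of necroptosis, and the deletion covers the whole body, so that an effect arising outside the HSCs is not separated from one within them. According to the methods, a library holds sorted immunophenotypic HSCs pooled from several mice, more for a young than for an aged pool, and all were made on the same day. The labels name no further treatment.

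Most adult HSCs are quiescent, that is, they rest outside the division cycle. Mitogens raise the D cyclins, which activate CDK4 and CDK6. These kinases phosphorylate the pocket proteins, the E2F factors are released, and the genes for cyclin E and for DNA replication are transcribed. The genes of mitosis are switched on later, through CCAAT boxes and the cell cycle genes homology region (CHR), a site of the DREAM and MuvB complexes.

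Each list held between 36805 and 63125 summits, each with a −log10 q-value as its score. Read depth is unknown. All lists were therefore reduced to their 35714 highest-scoring summits, and each region was ranked within a list by its best summit. Ranks were expressed as normal scores, on which 0 is the middle of the catalogue and a region with no summit in the reduced list takes a value between −0.575 and −0.525. A difference in normal score is thus a difference in relative rank and not in accessibility itself, and in a bulk library fewer cells with an open region and less opening per cell cannot be told apart. Called regions all lie above 0, so a gained or lost call is a jump in value. For a region called in only some libraries, the mean and SD mix measured values with assigned ones. Of HSC markers, 4 of 11 had a promoter called in all 12 lists, and that of Slamf1, the gene for the sorting marker CD150, was called in none. B cell and T cell markers had no promoter called in any list for 5 of 6 genes each, erythroid markers for 4 of 6, and neutrophil and monocyte markers for 6 of 6. Summits at Y-linked genes occurred in 3 of the 6 young libraries and in 0 of the 6 aged ones, and the sex of the mice in a pool is not in the labels.

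The promoters were the most constant part of these loci. For 34 of the 40 genes (85%) the highest-ranked promoter region was called in all 12 lists, against 43.3% of all protein-coding genes. Counted by region, 36 of the 46 promoter regions were called in all 12 lists, against 47.3% of all regions within 1 kb of a start. Distal regions behaved otherwise: 4 of 69 were called in all 12 lists, against 12.2% of all regions beyond 1 kb of a start. The summits stood close to the start, at a median distance of 117 bp over the 40 genes, and within 100 bp for 19 of them. At Mcm4, a subunit of the replicative helicase, the summits of all 12 lists fell within 20 bp of each other.

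A set of promoter sequences from the different phases is shown here, so that the letters counted in the motif search can be seen in their setting. They were taken from RefSeq (GRCm38, the assembly of mm10), which had a promoter for 31 of the 40 genes. For each gene the most upstream RefSeq start was used, which need not lie in its highest-ranked promoter region. No entry was matched for Aurkb, Ccnd2, Gmnn, Ccnd1, Ccne2, E2f4, Wee1, Mcm4 and Ccna2. Each run ends at the base before the RefSeq start and reads 5′ to 3′ on the strand of the gene. Capitals mark matches on either strand to E2F (TTTNNCGC), CHR (TTTGAA or TTCGAA) or the CCAAT box (CCAAT), and the capitals of overlapping matches run together.
The promoters of Mcm5 (chr8:75109349-75109508) and Mcm6 (chr1:128359706-128359825), helicase subunits, and of Rbl1 (chr2:157204535-157204614), a pocket protein, held E2F matches.
Mcm5: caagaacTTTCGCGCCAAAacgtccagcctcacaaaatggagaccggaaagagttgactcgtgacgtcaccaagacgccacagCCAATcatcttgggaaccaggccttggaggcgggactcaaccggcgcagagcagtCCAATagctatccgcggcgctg
Mcm6: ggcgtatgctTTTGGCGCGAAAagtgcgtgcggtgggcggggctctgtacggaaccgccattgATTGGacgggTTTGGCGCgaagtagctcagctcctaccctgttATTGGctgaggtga
Rbl1: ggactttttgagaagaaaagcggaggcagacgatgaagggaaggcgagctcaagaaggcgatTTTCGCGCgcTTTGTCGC
Cdk1 (chr10:69352913-69353052), the mitotic kinase, held all 3 kinds.
Cdk1: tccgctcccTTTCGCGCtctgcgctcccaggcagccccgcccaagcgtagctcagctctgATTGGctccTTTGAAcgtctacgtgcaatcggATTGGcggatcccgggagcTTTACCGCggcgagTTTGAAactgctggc
Cdc20 (chr4:118437344-118437423), an activator of the anaphase-promoting complex, Top2a (chr11:99024190-99024349), which untangles sister chromatids, and Mki67 (chr7:135716380-135716579), the gene of the Ki-67 antigen, held CHR and CCAAT matches and no E2F match.
Cdc20: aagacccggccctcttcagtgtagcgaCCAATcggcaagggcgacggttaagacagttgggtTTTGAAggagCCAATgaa
Top2a: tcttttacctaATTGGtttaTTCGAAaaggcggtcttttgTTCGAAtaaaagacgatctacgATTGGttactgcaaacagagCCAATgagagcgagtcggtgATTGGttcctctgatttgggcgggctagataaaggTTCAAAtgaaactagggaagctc
Mki67: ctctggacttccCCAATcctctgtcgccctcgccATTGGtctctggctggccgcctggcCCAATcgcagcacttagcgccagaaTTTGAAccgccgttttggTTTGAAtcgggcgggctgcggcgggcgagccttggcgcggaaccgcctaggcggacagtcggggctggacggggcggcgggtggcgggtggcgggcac
Among the genes of early G1, Cdk4 (chr10:127063415-127063534) held none of the 3 and Cdk6 (chr5:3343683-3343892) held 1 E2F match.
Cdk4: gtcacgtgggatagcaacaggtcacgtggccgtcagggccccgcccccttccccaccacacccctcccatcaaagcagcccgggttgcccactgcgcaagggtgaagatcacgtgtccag
Cdk6: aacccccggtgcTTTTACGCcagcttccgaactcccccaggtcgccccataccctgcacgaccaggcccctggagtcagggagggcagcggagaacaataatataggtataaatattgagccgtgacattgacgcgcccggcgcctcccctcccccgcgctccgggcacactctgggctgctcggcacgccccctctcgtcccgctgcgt

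Over the window from 250 bases before to 50 after the start, E2F matched 13 of 31 cell cycle promoters (41.9%) and 5.29% of 27025 promoters in the table. It matched 6 of 8 promoters of replication genes and 0 of 8 promoters of the mitosis and checkpoint genes. CHR matched 14 of 31 (45.2%) and 19.5% of all, with 7 of 8 in the mitosis and checkpoint genes, 3 of 4 in the mitotic entry genes and 0 of 3 each in the G1 and G1/S genes. The CCAAT box matched 21 of 31 (67.7%) and 38.0% of all, and it was found in all 4 promoters of the mitotic entry genes (Ccnb1, Ccnb2, Cdk1 and Cdc25b). The GC box (GGGCGG), which SP1 binds, matched 25 of 31 (80.6%) and 35.9% of all. These are letter matches, given as a description without a test.

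**Figure D1:**
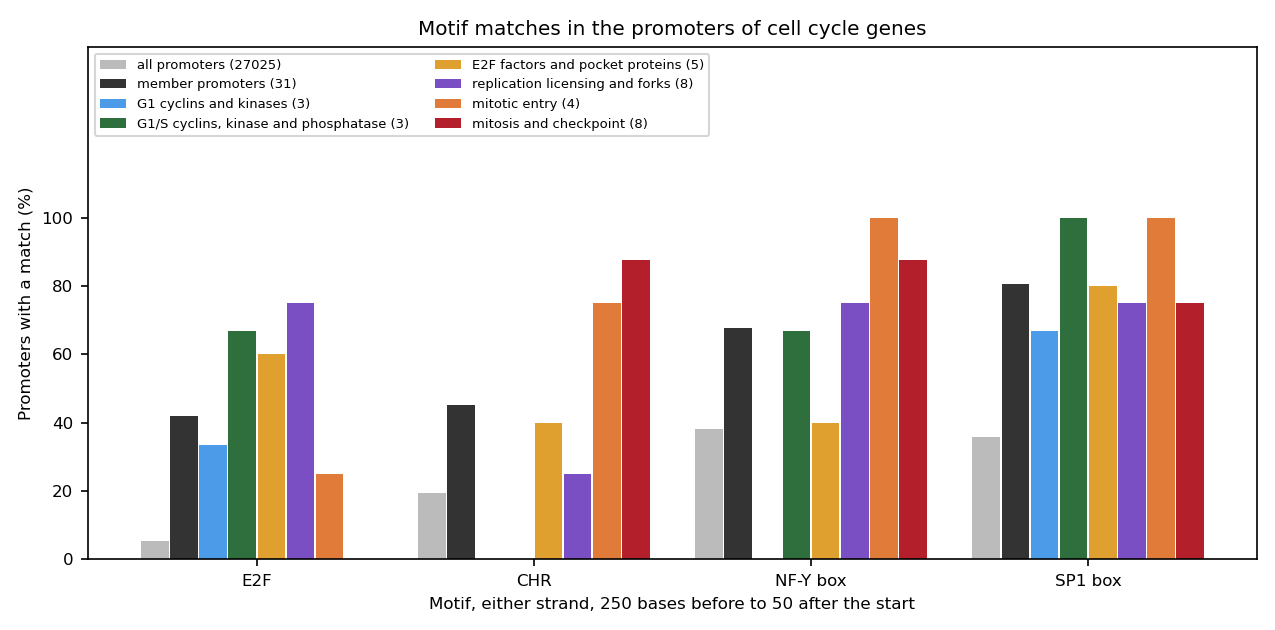
Share of promoters (%) with a match to each of 4 motifs, the NF-Y box being CCAAT and the SP1 box the GC box. Grey bars stand for all 27025 promoters, black bars for the 31 cell cycle promoters and coloured bars for the classes, with the number of promoters in brackets. E2F is highest in replication genes (75.0%) and CHR in mitosis and checkpoint genes (87.5%).

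Among the genes of G1, Cdk4 and Ccnd3 (cyclin D3) had high promoters in every library, at 1.28 ± 0.24 and 1.25 ± 0.17 (normal score, mean ± SD over 12 libraries). Ccnd2 (cyclin D2) was lower at 0.64 ± 0.21. The highest summit of this Ccnd2 region lay at −1480 bp from the nearest annotated start, and its summits were spread over 754 bp. Ccnd1 (cyclin D1) and Cdk6 were each called in only 6 of 12 reduced lists. All 4 genes of the G1/S step were called in every library. Cdc25a, the phosphatase that frees CDK2 from inhibition, stood highest of them at 2.55 ± 0.35, above Ccne1 (cyclin E1, 1.47 ± 0.19), Ccne2 (cyclin E2, 1.0 ± 0.22) and Cdk2 (0.97 ± 0.12). The lowest value of Cdc25a was 2.13 and the highest of the other three was 1.84, so their ranges did not overlap.

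Within the E2F family the activators were unequal. The promoter of E2f3 reached 2.13 ± 0.21 and that of E2f1 1.38 ± 0.26, whereas the promoter of E2f2 was the lowest of all 40, at −0.40 ± 0.34. E2f4, the repressor E2F of resting cells, stood at 1.22 ± 0.18. Of its partner pocket proteins, Rbl2 (p130) was called in all 12 lists at 0.92 ± 0.21 and Rbl1 (p107) in 7 of 12 at 0.09 ± 0.58.

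All 10 genes of replication licensing and forks had a promoter called in every library. Mcm4 (2.73 ± 0.25), Mcm5 (2.34 ± 0.30) and Mcm3 (2.25 ± 0.43) led this class, followed by Pcna (1.99 ± 0.22), the sliding clamp. Mcm6, Mcm7 and Mcm2, subunits of the same helicase, ranked lower, at 1.34, 1.20 and 1.19. Cdc6, a loader of the helicase, had 1.5 ± 0.26, while Gmnn (geminin, 1.07 ± 0.20) and its target Cdt1 (0.97 ± 0.24) were the lowest of the class. The 6 mitotic entry genes ranged from Ccnb2 (cyclin B2, 0.80 ± 0.23) to Ccna2 (cyclin A2, 2.81 ± 0.30), the highest promoter of the 40. Of the mitosis and checkpoint genes, Mad2l1, a spindle checkpoint protein, stood highest at 2.60 ± 0.24, and the checkpoint kinase Bub1 stood at 0.45 ± 0.20.

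**Figure D2:**
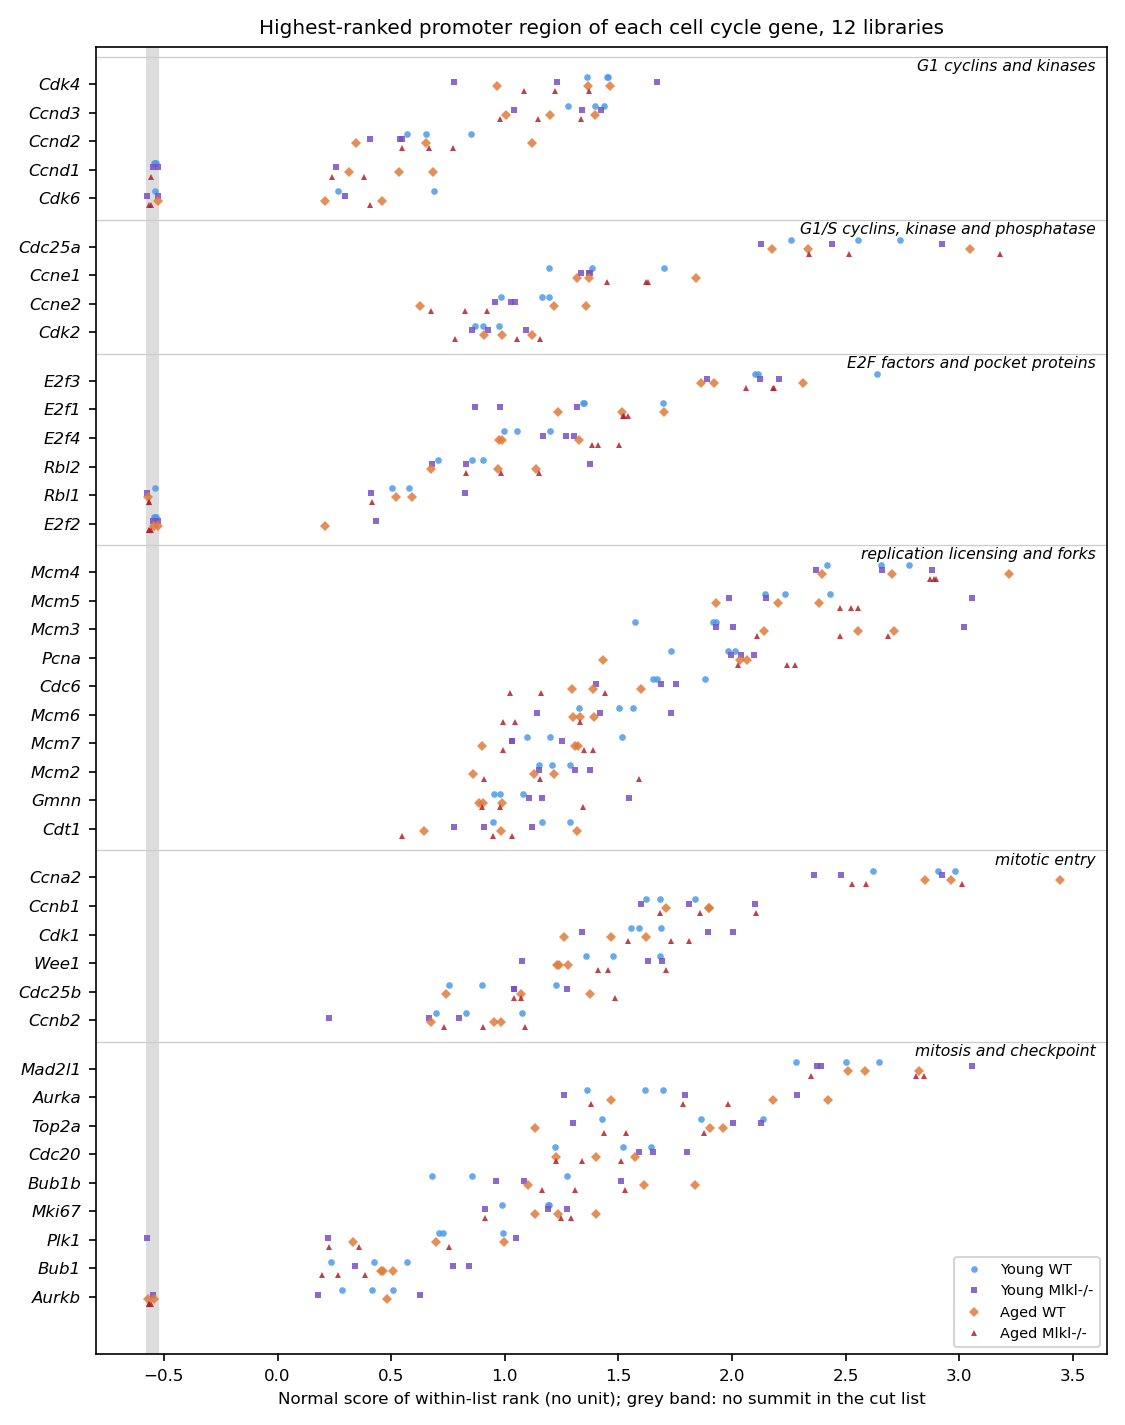
Normal score of within-list rank (x axis, no unit) of the highest-ranked promoter region of each of the 40 genes, with 1 symbol per library, coloured by group, and genes ordered within their class. Symbols in the grey band mark libraries in which the region had no summit in the reduced list. In this plot Ccna2, Mcm4 and Mad2l1 lie furthest right and 6 genes have symbols in the band.

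The 3 highest promoters were called in every library. Ccna2 (region chr3:36571638-36572508) read 2.91, 2.98 and 2.62 in young WT, 2.48, 2.92 and 2.36 in young Mlkl-/-, 3.44, 2.85 and 2.96 in aged WT, and 2.53, 2.59 and 3.01 in aged Mlkl-/-. All 4 groups overlapped. Mcm4 (chr16:15636999-15638223) ranged from 2.37 to 3.22, and Mad2l1 (chr6:66535003-66535836) from 2.28 to 3.06.

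In 6 genes no promoter region was called in all 12 reduced lists. The promoter of Ccnd1 (chr7:144939473-144940082, highest summit in the UTR 142 bp into the gene) read −0.54, −0.53 and −0.54 in young WT, −0.55, 0.26 and −0.52 in young Mlkl-/-, 0.32, 0.68 and 0.53 in aged WT, and 0.24, 0.38 and −0.56 in aged Mlkl-/-. Calls were thus 1 of 6 among young and 5 of 6 among aged libraries, and the full lists held no further summit there. The promoter of Aurkb, the kinase of the chromosomal passenger complex (chr11:69045375-69045995, in the UTR), went the other way, with 0.28, 0.51 and 0.41 in young WT, −0.55, 0.18 and 0.63 in young Mlkl-/-, −0.54, 0.48 and −0.57 in aged WT, and −0.57, −0.56 and −0.56 in aged Mlkl-/-. Here the calls were 5 of 6 at 3 months and 1 of 6 at 18 months, or 5 of 6 and 4 of 6 in the full lists. Neither change with age passed the test, as given with the other changes further on.

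The other 4 showed no such division. Cdk6 (chr5:3343440-3344900) was called in 2 WT and 1 Mlkl-/- library at each age, and in 11 of the 12 full lists. Rbl1 (chr2:157203950-157205158) was called in 4 young and 3 aged libraries, and in all 12 full lists. Their values when called ran up to 0.69 and 0.82. Plk1, the polo-like kinase (chr7:122158755-122159813), was missing in only 1 reduced list, Young Mlkl-/- replicate 2. E2f2 (chr4:136171824-136172486) was called in 1 young Mlkl-/- list and 1 aged WT list, at 0.43 and 0.21, in 5 full lists, and was too rarely called to be tested.

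Distal regions were unevenly shared among the classes. Of the 69, 45 lay in introns, 19 between genes and 5 in exons or UTRs, and 17 of the 40 genes had none. The 5 genes of G1 held 32 of them, or 7.52 per 100 kb of the windows scanned. The other classes held between 1.5 and 3.67 per 100 kb, and the merged windows of all 21938 protein-coding genes 2.66. The most distal regions were found at Cdk6 (12), Ccnd3 (10) and E2f2 (6). At Ccnd3 and Cdk4, 3 distal regions were called in all 12 reduced lists. They were Ccnd3 distal 2 (chr17:47510996-47511551, 0.98 to 1.51) and Ccnd3 distal 3 (chr17:47521317-47522058, 0.59 to 1.5), both in introns of Ccnd3, and an intergenic region 11.7 kb downstream of the start of Cdk4 (chr10:127075004-127075597, 0.81 to 1.48). The fourth lay in an intron of E2f2 (chr4:136177315-136178468, 0.21 to 1.40). Of the 12 distal regions of Cdk6, which is spread over a far longer gene, none was called in all 12 reduced lists, and 4 were called often enough to be tested.

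Within 100 bp of the highest summit, the 69 distal regions matched the ETS letters AGGAAGT in 24.6%, against 18.6% of the 51347 regions beyond 1 kb of a start. The RUNX letters TGTGGTT matched in 15.9%, against 12.5%. The GATA letters AGATAA matched in 10.1%, against 11.4%. The AP-1 letters TGANTCA matched in 11.6%, against 12.2%. Both strands were searched, none of the 4 motifs contains another, and the shares were not tested.

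The windows also took in the promoters of close neighbours, 28 in all, of which 14 were called in every reduced list and 22 were tested. The one ahead of Rab5b, next to Cdk2 (chr10:128695531-128696714), stood at 2.84 ± 0.20, while Cdk2's own promoter stood at 0.97 and was lower in every library. The neighbour promoters of Aktip at Rbl2 (2.32 ± 0.39) and of Cds2 at Pcna (2.06 ± 0.36) followed. None of these belongs to a cell cycle gene of the list, and they were named after their values were seen.

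The number of distal regions called depended on how the lists were compared. In the reduced lists it was 22.2 ± 1.47 in young and 19.7 ± 2.42 in aged libraries (mean ± SD, n = 6 each, of 69 regions). In the full lists it was 33.2 ± 7.25 in young and 36.7 ± 5.16 in aged libraries. The direction thus turned with the length of the lists, and the ranges overlapped both times. Promoter regions gave 40.5 ± 0.837 and 40.7 ± 1.03 of 46 in the reduced lists. Over the whole catalogue, the reduced lists held 16390 ± 1121 distal regions in young and 17150 ± 1084 in aged libraries. For promoter regions of the whole catalogue these numbers were 12980 ± 315 and 12730 ± 284.

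**Figure D3:**
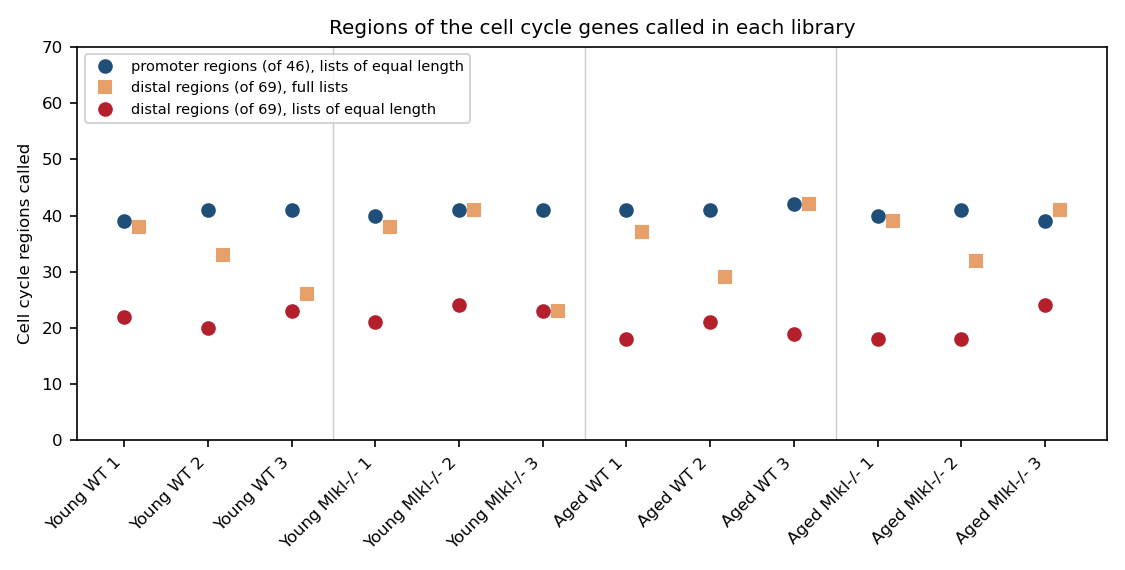
Number of cell cycle regions (y axis) called in each of the 12 libraries (x axis). Blue points stand for promoter regions and red points for distal regions in the reduced lists, and orange squares for distal regions in the full lists. Promoter counts stay between 39 and 42, whereas distal counts in the full lists run from 23 to 42.

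The comparison of 18 with 3 months over both genotypes asked whether ageing moves these regions. Of the 143, 93 were called in at least 3 of the 12 reduced lists and were tested (43 promoter, 22 neighbour promoter and 28 distal). Only 1 of the 93 passed limma at a Benjamini-Hochberg adjusted p under 0.01, against 2.72% of all 37872 tested regions. It was lower with age, as were 380 of the 1031 regions called in all. By position the background was 0.773% within 1 kb of a start and 3.95% beyond it. At an unadjusted p under 0.05, 13 of the 93 were called (6 higher and 7 lower), against 22.2% of all. The 6 young and 6 aged values did not overlap in 1 of the 93, against 3.89% of all. The median change was 0.04 in cell cycle promoter regions and −0.04 in all promoter regions, with the former at −0.03 with Y-linked summits as a covariate, and 0.03 in both the cell cycle distal regions and all distal regions. A positive estimate was found for 25 of the 43 promoter regions, against 43.1% of all tested promoter regions, and for 14 of the 28 distal regions, against 52.9% of all. The median 95% interval reached 0.31 to either side in promoter and 0.55 in distal regions, and estimates beyond these widths also missed the adjusted threshold.

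**Figure D4:**
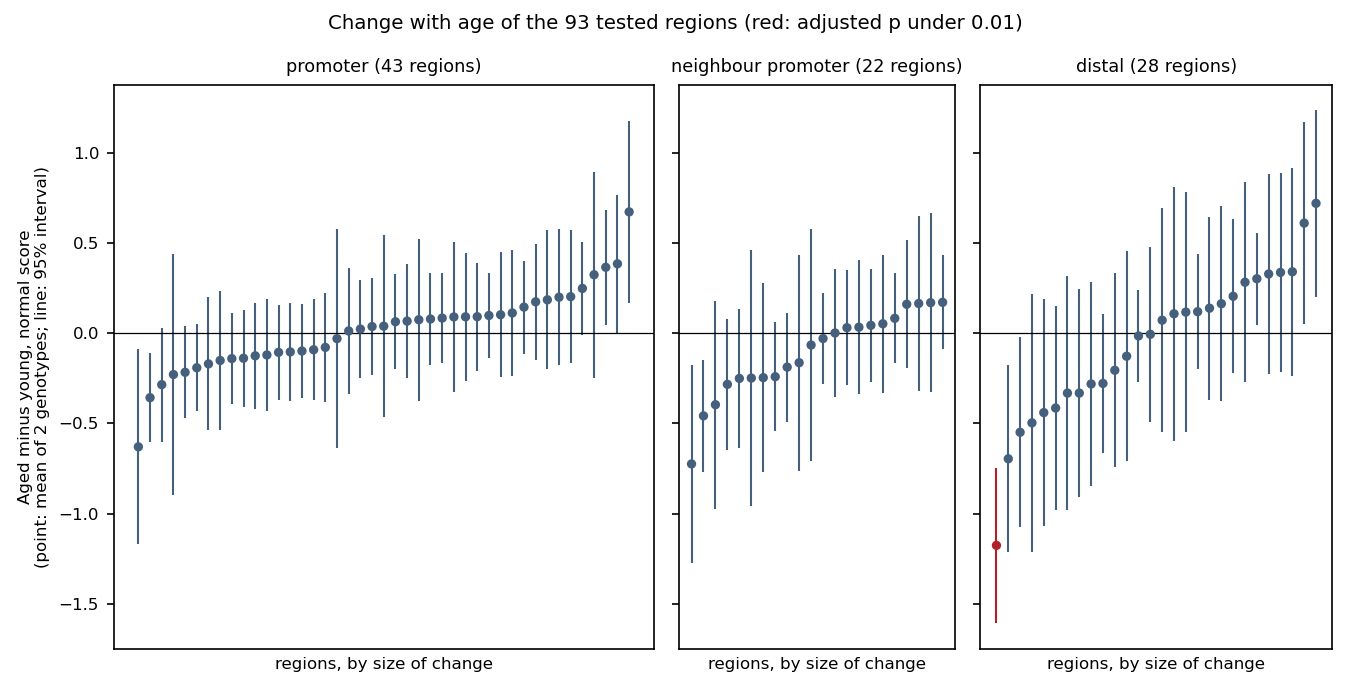
Change in normal score with age (y axis, aged minus young, mean of both genotypes) of the 93 tested regions, ordered by size within each kind. Points are estimates, lines 95% intervals, and red marks an adjusted p under 0.01. A single distal region, at −1.17, is red, and the promoter changes lie between −0.63 and 0.67.

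The region that passed, Ccnd3 distal 4 (chr17:47523022-47523725), lay in an intron of Ccnd3 with its highest summit 18.1 kb downstream of the nearest annotated start of the gene. It read 0.61, 0.90 and 0.78 in young WT and 0.50, 0.40 and 0.54 in young Mlkl-/-. It read −0.54, −0.53 and −0.57 in aged WT and −0.57, −0.56 and −0.56 in aged Mlkl-/-, the values of regions not called. It was called in all 6 young lists and none of the 6 aged ones, and it entered the test through the young calls alone. That the ages did not overlap follows from these calls and is no further evidence. The aged values are those given to any uncalled region and hold no measured spread. The sizes of change and p-values that follow depend on these assigned values. The change was −1.17 ± 0.21 (SE, limma adjusted p = 0.00182). In WT it was −1.31 ± 0.29 (adjusted p = 0.0304) and in Mlkl-/- −1.04 ± 0.29 (adjusted p = 0.0737), neither of which passed alone. The difference between these changes was 0.26 ± 0.41 (adjusted p = 0.965).

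A summit was still listed at this place in 3 of the 6 aged full lists. Its −log10 q-value, which also depends on the unknown depth of each library and was not compared between them, was 9.73, 14.2 and 10.3 in young WT and 8.95, 10.2 and 6.39 in young Mlkl-/-. In the aged lists it was 5.08 and 5.26 in Aged WT replicates 1 and 3, 4.30 in Aged Mlkl-/- replicate 2, and no summit was listed in the other 3. The call was not kept with the presence of Y-linked summits as a covariate (−1.26, limma adjusted p = 0.0113) or with list length as a covariate (−1.12, adjusted p = 0.0450). Nor was it kept without the 3 libraries whose files lack a mark that the others bear (−1.19, adjusted p = 0.0138). It was kept when any single library was left out, with an adjusted p between 0.00299 and 0.00622.

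The sequence around its summit is shown with that of Ccnd3 distal 5, 4.4 kb away, whose estimate has the opposite sign but did not pass the test. Each spans 100 bases to either side of the highest summit on the plus strand (RefSeq GRCm38, chr17:47523189-47523389 and chr17:47527576-47527776). Capitals mark matches to the ETS, RUNX, GATA and AP-1 letters above, of which there was 1, for AP-1, in distal 4 and none in distal 5.
Ccnd3 distal 4: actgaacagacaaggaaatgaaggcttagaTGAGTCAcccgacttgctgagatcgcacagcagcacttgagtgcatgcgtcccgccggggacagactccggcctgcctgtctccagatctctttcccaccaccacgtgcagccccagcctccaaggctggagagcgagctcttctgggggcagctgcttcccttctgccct
Ccnd3 distal 5: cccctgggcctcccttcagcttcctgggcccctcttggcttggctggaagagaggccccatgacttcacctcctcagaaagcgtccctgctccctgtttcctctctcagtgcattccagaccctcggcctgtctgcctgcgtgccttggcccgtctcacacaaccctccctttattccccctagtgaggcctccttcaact

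Ccnd3 distal 5 (chr17:47527399-47527991, intron) read −0.54, −0.53 and −0.54 in young WT, 0.30, −0.57 and −0.52 in young Mlkl-/-, 0.33, 0.77 and 0.70 in aged WT, and 0.36, 0.29 and −0.56 in aged Mlkl-/-. A single young library and 5 aged libraries thus had it in the reduced lists, and the full lists 2 young and all 6 aged. The change of 0.72 ± 0.25 did not pass (limma adjusted p = 0.0841). It was named after its values were seen. Of the regions of the locus called in every list, Ccnd3 distal 2 changed by −0.02 ± 0.12, distal 3 by 0.12 ± 0.15 and the highest-ranked promoter by −0.14 ± 0.12.

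**Figure D5:**
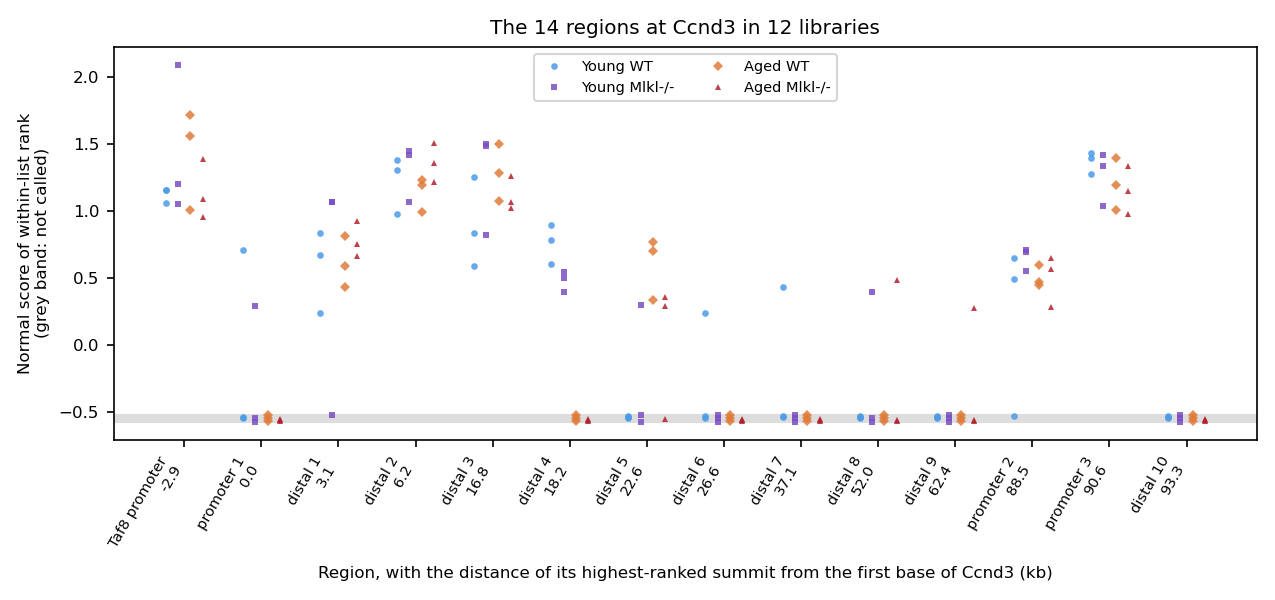
Normal score (y axis) of the 14 regions at Ccnd3 in the 12 libraries, coloured by group, ordered by the distance of the summit from the first base of the gene (kb, under each name). The grey band marks libraries with no summit in the reduced list. At distal 4 all 6 young libraries lie above the band and all 6 aged ones within it.

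In the other classes the tested region with the largest change did not pass. These were a neighbour promoter at Actl10 in the window of E2f1 (chr2:154552305-154553096, −0.72 ± 0.26, limma adjusted p = 0.0997), an intergenic region at Cdc25a (chr9:109894591-109895298, 0.34 ± 0.26, adjusted p = 0.495, and 0.12 without Young Mlkl-/- replicate 1), the promoter of Aurkb (−0.63 ± 0.26, adjusted p = 0.150), the promoter of Ccna2 (0.18 ± 0.18, adjusted p = 0.615) and a region in the UTR of Wipf2 upstream of Cdc6 (chr11:98900477-98901174, −0.55 ± 0.25, adjusted p = 0.207). In the reduced lists the Actl10 region was called in 5 young libraries and in 2 aged ones, both Mlkl-/-. The full lists held a summit there in every library. The Cdc6 upstream region was called in 3 young reduced lists and no aged one. It entered the test through these young calls alone, and its aged values were those given to any uncalled region. Among the aged full lists, Aged WT replicate 1 and Aged Mlkl-/- replicate 1 held a summit there (−log10 q-value 6.49 and 7.52). The promoter of Ccnd1 changed by 0.67 ± 0.24 (adjusted p = 0.0985).

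Further regions with an unadjusted p under 0.05 that did not pass are named here after their values were seen. Some were promoters called in every library. The promoter of Cdc6 (chr11:98907355-98907984) read 1.67, 1.88 and 1.65 in young WT, 1.69, 1.40 and 1.75 in young Mlkl-/-, 1.60, 1.39 and 1.29 in aged WT, and 1.16, 1.02 and 1.44 in aged Mlkl-/-. Its ages overlapped and its change was −0.36 ± 0.12 (limma adjusted p = 0.0703). The promoters of Mcm3 and Bub1b changed by 0.38 ± 0.18 and 0.36 ± 0.15 (adjusted p = 0.225 and 0.160). The neighbour promoter of Borcs6 in the window of Aurkb (chr11:69059286-69060010) changed by −0.46 ± 0.15 (adjusted p = 0.0683). Of the distal regions, one at Rbl2 changed by 0.61 ± 0.27 (adjusted p = 0.187) and the intergenic region at Cdk4 by 0.30 ± 0.12 (adjusted p = 0.142). An intronic region of E2f2, 17.7 kb from its start, changed by −0.70 ± 0.25 (adjusted p = 0.0950).

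Within each genotype none of the 93 regions passed for age. In WT 0.193% of all tested regions passed, and at an unadjusted p under 0.05 it was 9 of the 93 against 14.6% of all. In Mlkl-/- 0.151% of all passed, and without adjustment 4 of the 93 against 14.4%. The difference between the genotypes in their change with age passed in none of the 93 and in 0% of all regions, and without adjustment in 2 of the 93 against 4.78%. These were the intronic Cdk6 distal 8 and Cdk4 distal 3, both described with the genotypes.

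The comparison of Mlkl-/- with WT asked whether loss of Mlkl moves these regions. By limma none of the 93 passed over both ages, at 3 months or at 18 months, and neither did any of the 37872 regions (0% in each). At an unadjusted p under 0.05, 3 of the 93 were called over both ages (6.21% of all), 3 at 3 months (5.36%) and 1 at 18 months (5.09%). The median 95% interval of a promoter region reached 0.31 to either side over both ages and 0.44 at a single age. That of a distal region reached 0.55 and 0.78.

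Over both ages the lowest p-values belonged to the promoter of E2f4 and to neighbour promoters of Aktip, in the window of Rbl2, and Elmo3, in that of E2f4. The E2f4 promoter (chr8:105297335-105297938) read 1.20, 1.0 and 1.05 in young WT, 1.17, 1.27 and 1.31 in young Mlkl-/-, 0.99, 0.97 and 1.32 in aged WT, and 1.5, 1.38 and 1.41 in aged Mlkl-/-. The young groups overlapped and the aged groups did not. The region was picked by its low p, so that separation is no further evidence. The difference was 0.25 ± 0.11 over both ages (limma adjusted p = 0.763) and 0.34 ± 0.16 at 18 months (adjusted p = 0.869). The Aktip region (chr8:91133396-91134492) differed by −0.40 ± 0.17 over both ages and −0.50 ± 0.24 at 18 months, and the Elmo3 region (chr8:105305256-105306633) by −0.57 ± 0.25 over both ages, with the same adjusted p-values. At 18 months the third lowest p was that of a neighbour promoter of 1700003F12Rik in the window of E2f1 (chr2:154549556-154550121), at −0.66 ± 0.33. In the reduced lists this region was called only in Aged WT replicates 1 and 3 and Young Mlkl-/- replicate 1. All its aged Mlkl-/- values were those given to any uncalled region, and its size of change and p-value depend on them.

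At 3 months the lowest p was that of Cdk6 distal 8 (chr5:3494278-3494822), in an intron 150 kb into the gene. It read 0.61, 0.74 and 0.84 in young WT, −0.55, 0.30 and −0.52 in young Mlkl-/-, 0.36, −0.53 and 1.06 in aged WT, and 1.22, 0.90 and 0.38 in aged Mlkl-/-. Young WT lay above young Mlkl-/- in every library, and the aged groups overlapped. The values of Young Mlkl-/- replicates 1 and 3 were those given to any uncalled region, though the full list of replicate 1 held a summit there. The region was picked by its low p, so the separation at 3 months is no further evidence. The difference at 3 months was −0.99 ± 0.37 (limma adjusted p = 0.812), and the difference between genotypes in the change with age was 1.53 ± 0.53 (adjusted p = 0.965). Next came the promoter of E2f1 (chr2:154569010-154570420), at −0.41 ± 0.17, and Cdk4 distal 3 (chr10:127075984-127076527), in an intron of Agap2, at 0.65 ± 0.29 (adjusted p = 0.869 for both). The latter fell to 0.29 without Young WT replicate 2, the young library in which it was not called.

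The wider set of 56 other cell cycle genes, among them those of the origin recognition complex and the GINS proteins, is a list of the same pathway. A promoter was called in all 12 reduced lists for 54 of them, against 43.3% of all protein-coding genes, the exceptions being Lin9 (10 lists) and Mnat1 (9 lists). Of their 109 tested regions, 1 was higher and 1 lower with age, against 2.72% called in either direction among all tested regions, and none passed for genotype. The higher region was a neighbour promoter in the window of E2f6 (chr12:16849599-16850162, 1.39, limma adjusted p = 0.000615). It was called in 0 young and 6 aged reduced lists, so its young values were those given to any uncalled region. It entered the test through the aged calls alone, and its size of change and p-value depend on the assigned values. The lower region was in an intron of Mnat1 (chr12:73201574-73202163, −1.20, limma adjusted p = 0.00867). It was called in 6 young and 3 aged reduced lists, and all 12 full lists held a summit there. Its change thus depends in part on the values given to uncalled regions.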

How the data were processed

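ATAC-seq of HSCs was deposited as 12 lists of summits, 1 per library. Per the submitters' processing notes and the study's methods, reads were aligned to mm10 with Bowtie2 (2.5.3) and peaks called per library with MACS2 (2.2.7.1); the authors also used bedtools (2.31.0) and edgeR (3.30.3). Each deposited score is the −log10 q-value the authors obtained from MACS2. The methods state a q-value cutoff of 0.001, yet scores go down to about 2, so summits with a score of at least 3 were kept. Scores depend on the depth and background of a library, which are unknown, and only their ranks were tested.

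Windows of 250 bp on each side of summits on chromosomes 1 to 19, X and Y were merged over the 12 lists. Lists were then reduced to 35714 summits, ties being broken by a fixed seed. Regions were annotated with GENCODE M21 basic. The 37872 regions present in 3 or more reduced lists were tested. Their normal scores were fitted with limma 3.58.1 (R 4.3.3, lmFit, contrasts.fit, eBayes with trend), with group means over all libraries and 7 contrasts. Each contrast was adjusted over all tested regions by Benjamini-Hochberg. The same fit was run on simulated data with known age changes and no differences in list length. That run cannot show how such differences act on the calls. Counts of reads are not in the lists, so no count model was run. No pair of libraries was identical. The p-values measure the spread between libraries. Regions were named by fixed rules: those past the threshold, the largest age change per class, the 3 lowest p-values per genotype contrast, the highest, lowest and incompletely called promoters, and the genes with most distal regions; exceptions are stated. Members and gene lists were chosen with earlier results of these data known. Python 3.11.15, numpy 2.4.6, scipy 1.17.1, pandas 2.3.3, pysam 0.24.0 and matplotlib 3.10.9 were used. Alternatives are given in the closing section.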

Additional observations from a re-analysis of the deposited data

How the results depend on the processing

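The single region lower with age, Ccnd3 distal 4, was still the only cell cycle region called with lists of unequal length, other score minimums, windows of 100 bp, other minimums of lists, percentiles, a second seed and each library left out. The count fell to 0 with list length as a covariate, with Y-linked summits as a covariate and when 3 libraries, whose files lack a mark that the others bear, were left out; over all regions these gave 73, 329 and 188 calls in place of 1031, lists of unequal length gave 2030 of 52332, and leaving out a library gave 677 to 1063. At an adjusted p under 0.05 the count in WT was 1. Replicate numbers did not pair the libraries (correlation of deviations from −0.301 to 0.128 over 18 pairs, and 4 of 12 libraries closest to their own number). With a replicate block 1 cell cycle region was called (limma adjusted p = 0.00497), and no other call among the cell cycle regions changed. Over all regions the replicate block gave 783 calls in place of 1031.

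The median age change of distal regions, 0.03, had no fixed sign: it was −0.0250 with lists of unequal length, −0.0378 with windows of 100 bp, −0.0212 for regions called in at least 1 list, −0.0669 with list length as a covariate, −0.0154 for 2 kb around genes, 0.109 for scores of at least 5, 0.0897 for regions called in at least 6 lists, and −0.0409 to 0.0448 with a library left out, negative without Young Mlkl-/- replicate 3, Aged WT replicate 2, Aged WT replicate 3 or Aged Mlkl-/- replicate 3. That of promoter regions was −0.0298 with Y-linked summits as a covariate, and 0.00415 to 0.0629 with a library left out. Of changes that did not pass, Cdc25a distal 2 turned to −0.0597 with Y-linked summits and Ccna2 to −0.0795 with list length as covariates. The Cdk6 promoter (−0.03) turned to 0.12 with lists of unequal length, 0.10 with all scores, 0.0896 with scores of at least 5, 0.14 with list length, and −0.20 to 0.11 with a library left out; that of Rbl1 to 0.23 with list length; and that of Plk1 (0.04) to −0.0283 with lists of unequal length, −0.30 with Y-linked summits, −0.0226 without those 3 libraries, and −0.16 to 0.24 with a library left out. With a library left out, Cdc25a distal 2 ranged from 0.12 to 0.46, Ccna2 from 0.10 to 0.27, the Aktip region over both ages from −0.51 to −0.25 and Cdk4 distal 3 at 3 months from 0.29 to 0.86. The cause was not tested. Read depth is unknown, 3 libraries per group limit every contrast, and a change inside regions of very high rank or below the reduced lists cannot be seen on this scale.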
